A study of Mus musculus with 82 samples.

Results

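Retinal ganglion cells (RGCs) of glaucomatous mice whose superior colliculus had been stimulated for weeks (“OHT + DREADD”, 10 libraries) were compared with RGCs of mice that had neither the injury nor the stimulation (“SHAM”, 10 libraries), to ask how far the treated glaucomatous cells lay from the healthy state. The 20 libraries were taken from 82 by their titles, and 17314 genes were tested, each having over 5 reads in 2 or more of the 20. Only 13 genes (0.0751% of those tested) were differentially expressed genes (DEGs), for which the adjusted p had to be 0.1 or lower and the log2 fold change 1.3 or more in either direction. Among them, 7 protein-coding genes were higher in “OHT + DREADD”, namely *Cdkn1a*, *Mt2*, *Nr4a1*, *H1foo*, *Egr1*, *Usp2* and *Per1*, and 6 predicted genes of satellite-like sequence were lower.

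The series design gives adult mice of about 10 weeks, while the injection schedule in the methods adds up to a somewhat higher age at death. By the study's methods the mice came from a cross of Vglut2-ires-Cre with Thy1-STOP-YFP, although the deposited genotype label reads WT. “SHAM” mice received a null vector that carries mCherry under the CaMKIIα promoter in the left superior colliculus and vehicle in the anterior chamber of the right eye. “OHT + DREADD” mice received the same kind of vector with hM3D(Gq), a designed receptor that excites neurons when its drug is given, and magnetic microbeads that block outflow and cause ocular hypertension (OHT). Every mouse of every group was given clozapine-N-oxide (CNO), the drug of that receptor, over 5 weeks with a last dose 2 h before death, so that an effect of CNO alone was common to both sides. Each library was made from the YFP+, 7-AAD- cells of 1 retina. The 2 groups differ in both the beads and the receptor, and a difference between them cannot be assigned to either from these 20 libraries alone.

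RGCs are the output neurons of the retina, and in the mouse nearly all of them send an axon to the superior colliculus. In glaucoma, pressure at the optic nerve head injures these axons and the cells are lost slowly. Immediate early genes such as *Fos*, *Egr1* and *Nr4a1* are transcribed within minutes of neuronal activity or stress, whereas metallothioneins, *Cdkn1a* and *Per1* are among the genes that glucocorticoid hormones switch on in many tissues, and *Cdkn1a* is also a classic target of p53.

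The promoters of 4 of the DEGs that were higher are shown because these genes were high in the same libraries and have well-studied inducible promoters. Each sequence holds the 250 bases before an annotated RefSeq start on the + strand of GRCm38.p6, with matches on either strand to the motifs TGACGCA and TGACGT (variants of the cAMP response element), TGANTCA (AP-1), CACGTG (E-box), TGCACNC and TGCGCNC (metal response element cores) and the p53 core pair (2 copies of CATG with 6 bases between) in capitals. The RefSeq table held 5 of the 7 protein-coding DEGs, and *H1foo* and *Egr1* were not among them. *Usp2* was in it, and its window, which is not shown, had no match to any of these motifs. No match overlapped another. For *Cdkn1a* the first and for *Per1* the second of 2 annotated starts is shown.
Cdkn1a, chr17:29090729-29090978: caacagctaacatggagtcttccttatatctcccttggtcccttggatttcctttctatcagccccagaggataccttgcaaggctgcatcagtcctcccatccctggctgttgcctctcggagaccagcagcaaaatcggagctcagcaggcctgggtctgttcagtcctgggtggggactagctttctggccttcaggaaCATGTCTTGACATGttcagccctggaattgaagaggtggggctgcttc
Mt2, chr8:94172368-94172617: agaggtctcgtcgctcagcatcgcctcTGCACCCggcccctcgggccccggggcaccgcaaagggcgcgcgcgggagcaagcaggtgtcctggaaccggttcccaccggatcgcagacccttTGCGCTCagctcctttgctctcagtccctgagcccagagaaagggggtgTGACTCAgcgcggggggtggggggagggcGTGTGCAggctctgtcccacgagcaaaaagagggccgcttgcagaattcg
Nr4a1, chr15:101266596-101266845: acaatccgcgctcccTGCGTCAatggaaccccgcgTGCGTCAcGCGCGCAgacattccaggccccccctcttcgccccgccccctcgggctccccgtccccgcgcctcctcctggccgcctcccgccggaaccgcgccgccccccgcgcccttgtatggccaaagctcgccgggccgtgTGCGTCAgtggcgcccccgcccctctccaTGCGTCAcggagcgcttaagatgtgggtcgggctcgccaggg
Per1, chr11:69099902-69100151: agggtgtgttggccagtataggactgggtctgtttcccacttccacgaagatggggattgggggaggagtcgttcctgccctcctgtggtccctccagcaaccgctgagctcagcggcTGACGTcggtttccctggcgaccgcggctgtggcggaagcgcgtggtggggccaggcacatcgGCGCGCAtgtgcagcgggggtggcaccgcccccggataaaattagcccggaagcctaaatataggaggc
The window of *Cdkn1a* held 1 match to the p53 core pair, 48 bases before the start, which 0.49% of the 32851 promoters of this length also held. The window of *Nr4a1* held 4 matches to TGACGCA, found at least once in 1.75% of promoters, of which 1 lay next to a TGCGCNC match. In *Mt2* there were 2 matches to TGCACNC (10.4% of promoters), 1 to TGCGCNC (12.5%) and 1 to TGANTCA (6.75%). In *Per1* TGACGT (6.47% of promoters) lay 132 bases before the start. The full palindrome of the glucocorticoid receptor (AGAACA, 3 bases and TGTTCT), present in 0.00913% of promoters, and CACGTG, present in 6.02%, had no match in these windows. At the other annotated starts, *Per1* had a CACGTG match 166 bases before the start and *Cdkn1a* had no match to the p53 core pair. These matches describe letters only.

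Total counts ran from 3534776 to 6889040 in “SHAM” and from 4311984 to 5922910 in “OHT + DREADD”. “SHAM” 1 to 4 had more genes detected (15097 to 15395) than “SHAM” 5 to 10 (13414 to 14250) and the “OHT + DREADD” libraries (13445 to 14528), and results that rest on them are marked below. By *Xist* and the Y-linked genes 2 “SHAM” and 5 “OHT + DREADD” libraries were from females, libraries 2, 9 and 10 not among them. RGC markers summed to 1345 ± 394 CPM (TMM-normalised counts, set to 1 common depth) in “SHAM” and 1349 ± 434 CPM in “OHT + DREADD” (mean ± SD, n = 10 each), and none of the 20 markers was at 0 throughout, while the 16 rod markers summed to 42680 ± 20870 and 48550 ± 30690 CPM. Mean sums were above those of RGCs for cones too, at 10750 CPM in “SHAM” and 11040 CPM in “OHT + DREADD”. The same held for amacrine cells (4665 and 3946 CPM) and bipolar cells (3433 and 3099 CPM). The sorted libraries thus held RNA of other retinal cells, and a change in “RGCs” below is not assigned to RGCs alone. In bulk libraries a smaller number of cells of a type cannot be told apart from less RNA per cell. Of 13 lists of cell type markers none passed a permutation test of the difference between groups. The list of Müller glia was nearest, at 3010 ± 745 against 3825 ± 1171 CPM (permutation test, unadjusted p = 0.0796, adjusted p = 0.917). In the fit by gene, 13 of 16 rod and 6 of 11 cone markers were higher (median log2 fold changes 0.25 and 0.05). Without “SHAM” 1 to 4 it was 16 of 16 and 11 of 11 (medians 0.72 and 0.59), so the marker results depend on these libraries.

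Most treated RGC libraries were no farther from the mean of healthy RGCs than single healthy libraries were. Over 7090 genes with a mean of at least 10 CPM, the root mean square log2 difference from the “SHAM” mean (leaving out the library itself for “SHAM”) was 0.555 to 0.799 (median 0.620) for “SHAM” and 0.508 to 1.12 (median 0.621) for “OHT + DREADD”. The medians of both groups were nearly the same. Between pairs of libraries the median of this measure was 0.854 within “SHAM”, 0.895 between the groups and 1.068 within “OHT + DREADD”. Treated libraries thus differed more from each other. “OHT + DREADD” 2, 8, 9 and 10 lay at 1.049, 0.807, 1.12 and 1.01, all beyond the farthest “SHAM” library, and the other 6 libraries lay at 0.508 to 0.635. Unstimulated “OHT” libraries lay at 0.524 to 0.684 (median 0.602), and “SHAM + DREADD” libraries at 0.571 to 1.04 (median 0.603).

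The 7 protein-coding DEGs were carried by a few treated retinas. *Cdkn1a* (chr17:29090976-29100727), which encodes the cell cycle inhibitor p21, was at 1.41 to 11.4 CPM (median 4.57) in “SHAM” and at 45.1, 268, 387 and 411 CPM in “OHT + DREADD” 1, 2, 9 and 10, with 1.98 to 8.73 CPM in the other 6. These 4 libraries were above every “SHAM” library and the other 6 were within its range. The log2 fold change was 4.17 (SE 0.74, adjusted p = 0.014) in edgeR's quasi-likelihood test with Benjamini-Hochberg adjustment, the test behind every adjusted p given here unless another is named.

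*Mt2* (chr8:94172664-94173568), which encodes a metal-binding metallothionein, followed the same 4 retinas. It was at 3.03 to 15.9 CPM (median 7.5) in “SHAM”, at 28.1, 363, 382 and 336 CPM in “OHT + DREADD” 1, 2, 9 and 10, and at 3.96 to 8.71 CPM in the other 6, a log2 fold change of 3.79 (SE 0.69, adjusted p = 0.014). *Mt1*, the neighbouring metallothionein gene, was not called but had the same shape, with 141 to 263 CPM (median 175) in “SHAM” and 1810.0, 1581 and 1573 CPM in “OHT + DREADD” 2, 9 and 10, and a log2 fold change of 1.68 (SE 0.39, adjusted p = 0.149). In the other treated libraries *Mt1* lay at 151 to 294 CPM, of which only library 1 was above the “SHAM” range.

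Of the immediate early genes, *Nr4a1* (chr15:101254269-101274795), an orphan nuclear receptor gene, was the more widely raised. It lay at 0.417 to 20.4 CPM (median 6.62) in “SHAM” and at 7.04 to 388 CPM (median 20.1) in “OHT + DREADD”, where libraries 9 and 10 reached 388 and 162 CPM, 5 of 10 libraries exceeded every “SHAM” library, and the log2 fold change was 3.20 (SE 0.60, adjusted p = 0.014). *Egr1* (chr18:34859823-34864984), a zinc finger transcription factor gene, lay at 0.247 to 22.7 CPM (median 5.49) in “SHAM” and reached 176, 334 and 432 CPM in “OHT + DREADD” 2, 9 and 10, with 47.5 CPM in library 3 and 4.07 to 11.0 CPM in the rest, a log2 fold change of 3.75 (SE 0.72, adjusted p = 0.014). Library 1, high for *Cdkn1a* and *Mt2*, was therefore within the “SHAM” range for *Egr1*.

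*Per1* (chr11:69095217-69109960), a repressor of the circadian clock that also responds fast to activity and glucocorticoids, lay at 11.0 to 35.5 CPM (median 21.6) in “SHAM” and at 106, 91.3, 196 and 146 CPM in “OHT + DREADD” 1, 2, 9 and 10. The other 6 treated libraries, at 18.2 to 31.6 CPM, were within the “SHAM” range, and the log2 fold change was 1.58 (SE 0.35, adjusted p = 0.0806). *Usp2* (chr9:44067021-44095627), a deubiquitinase gene with rhythmic expression, lay at 135 to 267 CPM (median 178) in “SHAM” and at 2330.0, 1056 and 719 CPM in “OHT + DREADD” 9, 10 and 2, with libraries 8 and 1 at 368 and 304 CPM also above every “SHAM” library, a log2 fold change of 1.64 (SE 0.35, adjusted p = 0.0536). *H1foo* (chr6:115944938-115950236), a linker histone gene known from oocytes, had 1 read in all of “SHAM” and 331 reads in 4 “OHT + DREADD” libraries, at 64.8 CPM in library 9 and 4.97 to 7.35 CPM in libraries 2, 8 and 10. It was absent from the other 6 at these depths, and its fitted fold change is not given because “SHAM” was at its floor.

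**Figure D1:**
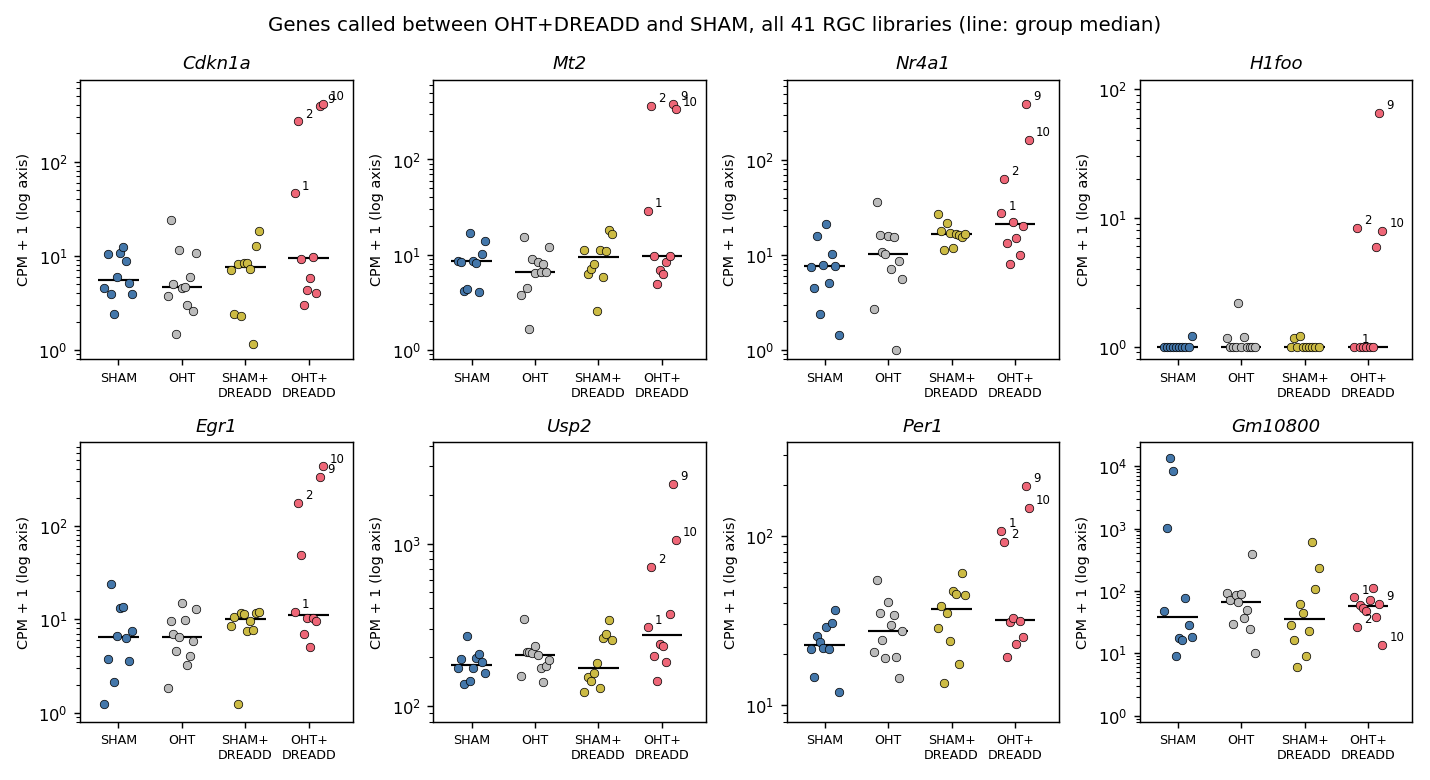
CPM plus 1 on a log axis of the 7 protein-coding DEGs and of 1 satellite-like gene, *Gm10800*, in each of the 41 RGC libraries of the 4 groups (points), with the group median (line) and with “OHT + DREADD” 1, 2, 9 and 10 numbered. For *Cdkn1a*, “OHT + DREADD” 2, 9 and 10 stand at 268 to 411 CPM above a “SHAM” range that ends at 11.4 CPM, while *Gm10800* is high in 3 “SHAM” libraries.

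Permutation tests of the mean log2 (CPM + 1) gave larger p-values than the fit over all genes. Unadjusted and two-sided, p was 0.0599 for *Cdkn1a*, 0.0633 for *Mt2* and 0.086 for *H1foo*, and 0.00196 for *Nr4a1*, 0.0138 for *Egr1*, 0.0071 for *Usp2* and 0.0131 for *Per1* (permutation test, 10 libraries a group). Without “OHT + DREADD” 2, 9 and 10 no gene was called, with 334 genes higher and 641 lower at an unadjusted p under 0.05, and the log2 fold change was 0.85 for *Cdkn1a*, 1.04 for *Nr4a1* and 0.72 for *Per1*. Without library 1 as well, it was -0.20 for *Cdkn1a*, -0.21 for *Mt2*, 0.86 for *Nr4a1* and 0.95 for *Egr1*, none of them called. Leaving out “SHAM” 1 to 4 also left no gene called, with 1071 genes higher and 414 lower at an unadjusted p under 0.05, although *Cdkn1a* had a log2 fold change of 3.95 and *Mt2* one of 3.53. With sex as a covariate 20 genes were called, among them all 7. With the summed rod markers as a covariate, of which “OHT + DREADD” 9 had the highest value of the 20 libraries (118100 CPM), 6 genes were called, and *Usp2* (adjusted p = 0.104) and *Per1* (adjusted p = 0.122) were not among them. Robust quasi-likelihood and limma-voom called none, with 714 higher and 642 lower and with 425 higher and 523 lower at an unadjusted p under 0.05.

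The same library numbers stood apart in the superior colliculus, which was sequenced separately with a 3′ tag method from lysates of the same groups. The colliculus titled “SHAM” 1 carries a treatment label of “OHT + DREADD”, it was kept under its title, and calls without it are given below. Collicular *Mt2* was at 516 to 928 CPM (median 605) in “SHAM”, at 1637, 2070.0, 2701 and 2460.0 CPM in “OHT + DREADD” 1, 2, 9 and 10, and at 513 to 643 CPM in the other 6. Collicular *Cdkn1a* was at 75.7 to 205 CPM (median 149) in “SHAM”, at 386, 494, 276 and 549 CPM in these 4 and at 130.1 to 160.4 CPM in the other 6. In both genes the 4 colliculi were above every other colliculus of the 2 groups.

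*Mt1*, *Nfkbia*, which encodes the inhibitor of NF-κB, and *Klf9*, a glucocorticoid-induced transcription factor gene, had the same 4 colliculi on top. For *Nfkbia* these were at 361, 649, 499 and 606 CPM, against 147 to 234 CPM (median 206) in collicular “SHAM” and 179 to 223 CPM in the other 6. The labels do not say that a retina and a colliculus of the same number came from 1 mouse, but in 20 of 20 such pairs the sex read from *Xist* and the Y-linked genes was the same.

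The immediate early genes did not share this pattern in the colliculus. Collicular *Fos*, the usual marker of recent neuronal activity, was at 9.70 to 31.5 CPM (median 14.9) in “SHAM” and at 27.0 to 101 CPM (median 59.4) in “OHT + DREADD”, with only 27.0 and 27.4 CPM in libraries 9 and 10 and 101 CPM in library 4. Its log2 fold change was 1.82 (SE 0.21, adjusted p = 1.62e-05) with all libraries and 2.07 (SE 0.18) without the 4. Collicular *Egr1* lay at 32.4 to 76.8 CPM (median 56.5) in “SHAM” and at 32.9 and 69.0 CPM in “OHT + DREADD” 9 and 10, the 2 retinas with the most *Egr1*, and at up to 153 CPM elsewhere in that group. Colliculi 9 and 10 were thus within the “SHAM” range for both genes, and the higher values were in other colliculi of the group.

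Of the 7 protein-coding RGC DEGs, 3 (*Nr4a1*, *Per1* and *Egr1*) were also among the 12 collicular DEGs (0.0773% of 15518 genes, for which the log2 fold change had to be 0.5 or more in either direction). Collicular *Nr4a1* had a log2 fold change of 1.03 (SE 0.20, adjusted p = 0.0307), *Per1* one of 1.02 (SE 0.21, adjusted p = 0.0585) and *Egr1* one of 0.87 (SE 0.18, adjusted p = 0.0651). Without the 4 colliculi *Nr4a1* and *Egr1* were still called, at 1.18 and 1.14, and *Per1* was not, at 0.47. Without the colliculus “SHAM” 1 there were 10 DEGs, of which *Nr4a1* was one and *Per1* and *Egr1* were not. *Cdkn1a* and *Mt2* were not called in the colliculus, where their log2 fold changes were 0.82 (adjusted p = 0.356) and 0.86 (adjusted p = 0.412).

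**Figure D2:**
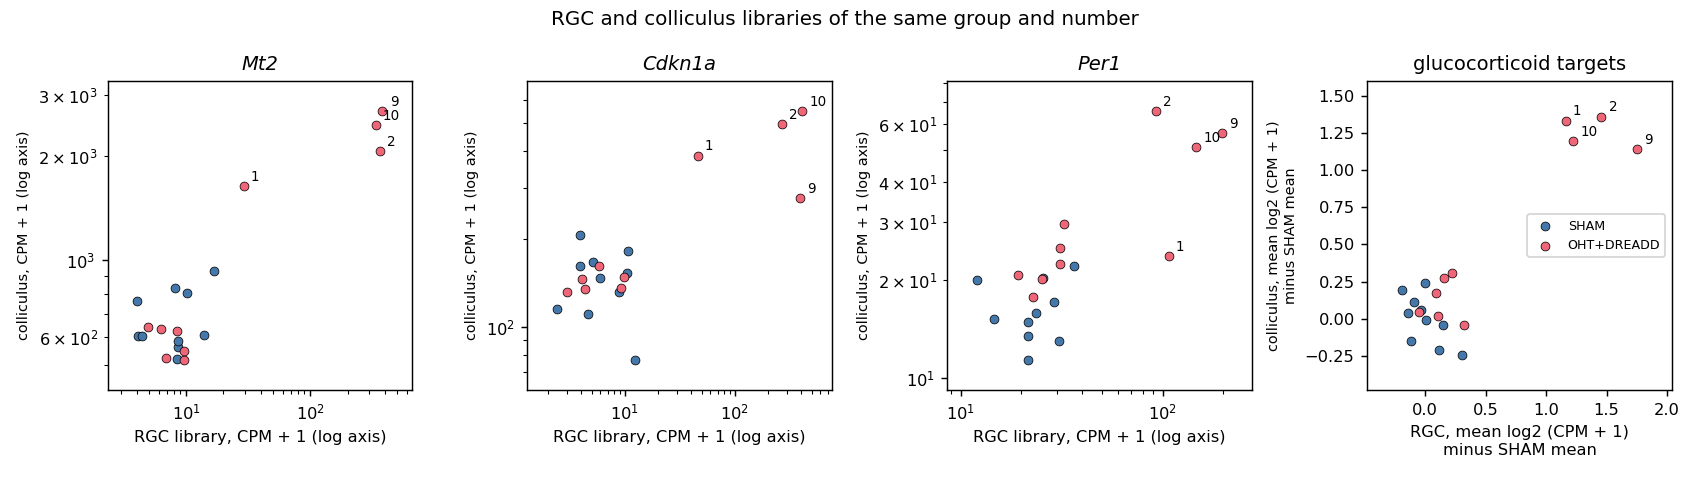
RGC (horizontal axes) against collicular (vertical axes) libraries of the same group and number for *Mt2*, *Cdkn1a* and *Per1* (CPM + 1, log axes) and for the mean of the glucocorticoid targets (mean log2 (CPM + 1) minus the “SHAM” mean), with 10 “SHAM” and 10 “OHT + DREADD” points a panel. “OHT + DREADD” 1, 2, 9 and 10 (numbered) sit at 1.16 to 1.75 in the RGCs and 1.14 to 1.36 in the colliculus for the glucocorticoid targets, apart from all other points.

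Glucocorticoid targets were higher as a group in the treated RGCs. Of 23 listed genes 20 were tested, and all 20 were higher in “OHT + DREADD” with a median log2 fold change of 0.64, 7 of them at an unadjusted p under 0.05, while 47.7% of all genes tested were higher with a median of -0.02 and 4.23% were higher at an unadjusted p under 0.05. The 7 were *Cdkn1a*, *Mt2*, *Per1*, *Mt1*, *Nfkbia*, *Klf9* and *Dusp1*, of which the first 3 were called. *Nfkbia* lay at 8.09 to 22.9 CPM (median 12.6) in “SHAM” and 8.34 to 144 CPM (median 25.8) in “OHT + DREADD”, where 7 of 10 libraries exceeded every “SHAM” library, and its log2 fold change was 1.35 (SE 0.35, adjusted p = 0.184). *Klf9* lay at 23.4 to 68.6 CPM (median 46.2) in “SHAM” and at 112, 181, 95.0 and 104 CPM in “OHT + DREADD” 1, 2, 9 and 10, the 4 libraries above that range, a log2 fold change of 0.82 (SE 0.27, adjusted p = 0.184).

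By library, the mean of this group relative to the “SHAM” mean was 1.16, 1.46, 1.75 and 1.22 on the log2 scale in RGC “OHT + DREADD” 1, 2, 9 and 10, -0.05 to 0.32 in the other 6, and -0.19 to 0.30 in “SHAM”. In the colliculus it was 1.33, 1.36, 1.14 and 1.19 in the same numbers, -0.04 to 0.31 in the other 6, and -0.24 to 0.24 in “SHAM”. Libraries 1, 2, 9 and 10 thus stood apart in both tissues. Of the other 6 only library 5 in the RGCs and libraries 3 and 7 in the colliculus lay above the “SHAM” range, each by less than 0.1. The list holds *Cdkn1a*, *Mt2*, *Per1* and *Mt1*, whose RGC values had singled out these libraries. Its mean in the RGCs and the fits without these libraries are therefore not independent evidence, and a mean without these genes was not taken. Without the 4, 13 of 20 were higher in the RGCs (median 0.18, 1 at an unadjusted p under 0.05). With these 4 kept and RGC “SHAM” 1 to 4 left out, 20 of 20 were higher (median 1.16, 8 at that level). In the colliculus 21 of 22 tested were higher with a median of 0.73 and 18 at an unadjusted p under 0.05 (4.69% of all collicular genes tested were higher at that level), and without the 4 libraries 12 of 22 were higher with a median of 0.03.

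Activity-dependent transcription factor genes were higher mainly in retinas 2, 9 and 10. In the AP-1 group 6 of 8 tested were higher (median log2 fold change 0.98), 3 at an unadjusted p under 0.05. Of all genes tested 47.7% were higher, and 4.23% were higher at that level. Without “OHT + DREADD” 2, 9 and 10 it was 3 of 6 AP-1 genes with a median of 0.01. These libraries were set aside after early genes had been seen high in them, so this fall is not independent evidence. *Fos* lay at 3.18 to 50.3 CPM (median 16.7) in “SHAM” and 15.2 to 289 CPM (median 36.6) in “OHT + DREADD”, where libraries 2, 9 and 10 at 75.8, 289 and 234 CPM exceeded that range, a log2 fold change of 1.95 (SE 0.47, adjusted p = 0.166). *Junb*, a partner of *Fos*, lay at 0 to 10.6 CPM (median 2.86) in “SHAM” and at 18.8, 25.3, 77.8 and 44.9 CPM in “OHT + DREADD” 1, 2, 9 and 10, with 0.203 to 2.98 CPM in the other 6, a log2 fold change of 2.18 (SE 0.67, adjusted p = 0.184).

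In the Egr and Nr4a group 11 of 17 were higher (median 0.56), of which *Nr4a1* and *Egr1* were called, and *Egr2*, *Btg2* and *Klf10* were higher at an unadjusted p under 0.05. *Egr2*, a relative of *Egr1*, had no read in “SHAM” and 39 reads in 3 “OHT + DREADD” libraries. *Btg2*, an antiproliferative early gene, lay at 42.2 to 159 CPM (median 109) in “SHAM” and 117 to 352 CPM (median 139) in “OHT + DREADD”, a log2 fold change of 0.75 (SE 0.23, adjusted p = 0.184). Genes that restrain MAP kinase signalling were higher in 13 of 16 cases (median 0.57, 5 at an unadjusted p under 0.05). Beside this list and the Egr and Nr4a group, 47.7% of all genes tested were higher and 4.23% were higher at that level. *Dusp8*, a phosphatase gene for JNK and p38, lay at 256 to 444 CPM (median 356) in “SHAM” and at 1183, 2275 and 2211 CPM in “OHT + DREADD” 2, 9 and 10, all other libraries being within the “SHAM” range (log2 fold change 1.16, SE 0.31, adjusted p = 0.184). *Dusp1*, a phosphatase gene of the same family and a glucocorticoid target, lay at 29.9 to 107 CPM (median 59.6) in “SHAM” and 64.0 to 175 CPM (median 90.4) in “OHT + DREADD”, with 3 libraries above the “SHAM” range (log2 fold change 0.65, SE 0.22, adjusted p = 0.197).

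Clock, splicing, ribosomal and p53 target genes were higher in most cases, and less so without the same retinas. Of 19 clock genes 13 were higher (median 0.29, 6 at an unadjusted p under 0.05), including *Cry1*, a repressor, at 29.4 to 84.5 CPM (median 46.5) in “SHAM” and 22.2 to 301 CPM (median 61.6) in “OHT + DREADD” (log2 fold change 0.96, SE 0.31, adjusted p = 0.184). Of 30 splicing factor genes 23 were higher (median 0.30, 10 at an unadjusted p under 0.05), led by *Clk4*, a kinase gene for SR proteins, at 22.3 to 54.2 CPM (median 37.1) against 27.8 to 262 CPM (median 64.8) (log2 fold change 1.33, SE 0.32, adjusted p = 0.172), for which 6 treated libraries exceeded every “SHAM” library. Of 79 cytosolic ribosomal protein genes 62 were higher (median 0.21, 8 at an unadjusted p under 0.05). Without “OHT + DREADD” 2, 9 and 10 these counts became 10 of 19, 21 of 30 (median 0.07) and 51 of 78 (median 0.05), with 1, 0 and 0 genes higher at an unadjusted p under 0.05. Of all genes tested, 733 of 17314 were higher at that level with all libraries and 334 of 16960 in the fit without those libraries.

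Of all genes tested 47.7% were higher, and 4.23% were higher at an unadjusted p under 0.05. Of 18 p53 targets 15 were higher (median 0.15, 5 at that level). Besides *Cdkn1a* these included *Sesn1*, a stress-induced inhibitor of mTORC1, at 28 to 60.0 CPM (median 45.3) in “SHAM” and 31.2 to 553 CPM (median 65.2) in “OHT + DREADD” with 7 of 10 libraries above the “SHAM” range (log2 fold change 1.40, SE 0.35, adjusted p = 0.184), and *Mdm2*, the ubiquitin ligase gene of p53, at 22.9 to 66.1 CPM (median 41.1) against 39.2 to 122 CPM (median 52.0) (log2 fold change 0.53, SE 0.24, adjusted p = 0.504). *Bax*, *Bbc3* and *Trp53* itself had log2 fold changes of 0.11, -0.49 and 0.04 and did not pass an unadjusted p of 0.05. Without “OHT + DREADD” 1, 2, 9 and 10, 7 of 17 p53 targets were higher, with a median of -0.04. These libraries had been singled out by *Cdkn1a* among others, a member of this list.

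**Figure D3:**
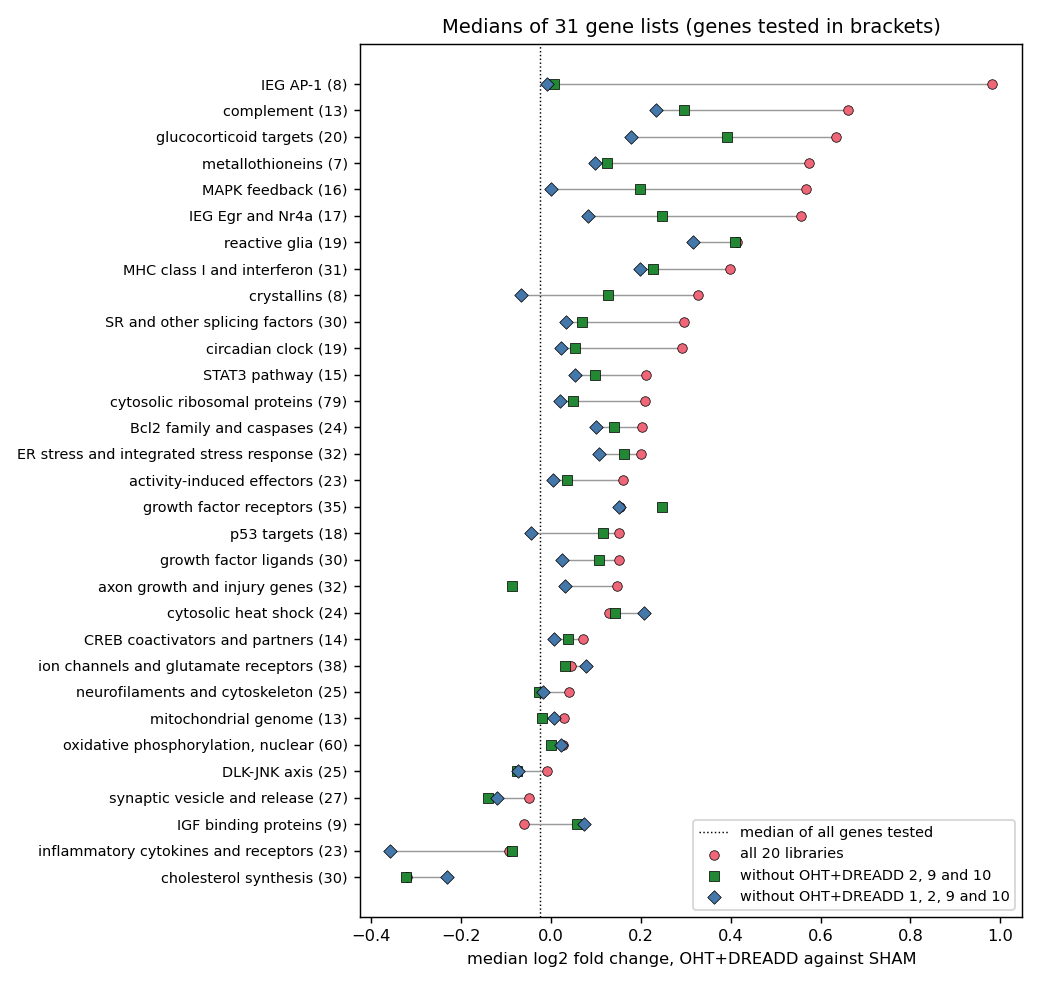
Median log2 fold change of “OHT + DREADD” against “SHAM” (horizontal axis) for 31 gene lists (rows, with the number of genes tested), with all 20 libraries (circles), without “OHT + DREADD” 2, 9 and 10 (squares) and without 1, 2, 9 and 10 (diamonds), and the median of all genes (dotted line). The AP-1 list moves from 0.98 to 0.01 and the glucocorticoid targets from 0.64 to 0.39 and 0.18, whereas cholesterol synthesis stays at -0.32 without 3 libraries and lies at -0.23 without 4.

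Genes of cholesterol synthesis were lower in the treated RGCs, and the median was as large without the 3 libraries that carried the early genes. Of 30 genes 25 were lower with a median log2 fold change of -0.32, 9 of them at an unadjusted p under 0.05 (3.79% of all genes tested were lower at that level) and none called. Without “OHT + DREADD” 2, 9 and 10 the counts were again 25 of 30 and 9 with a median of -0.32, and without “OHT + DREADD” 1, 2, 9 and 10 they were 24 of 30 and 5 with a median of -0.23. *Fdps*, which makes farnesyl diphosphate, lay at 84.6 to 178 CPM (median 150.0) in “SHAM” and 23.1 to 132 CPM (median 69.2) in “OHT + DREADD”, with 7 of 10 treated libraries below every “SHAM” library, and its log2 fold change was -0.89 (SE 0.23, adjusted p = 0.184).

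Further steps of the pathway had the same direction. *Msmo1*, a sterol demethylation enzyme gene, lay at 57.9 to 199 CPM (median 146) in “SHAM” and 18.8 to 139 CPM (median 84.6) in “OHT + DREADD”, 3 libraries being below the “SHAM” range (log2 fold change -0.78, SE 0.25, adjusted p = 0.184). *Fdft1*, the squalene synthase gene, lay at 138 to 366 CPM (median 325) against 56.5 to 321 CPM (median 193), with 4 libraries below the “SHAM” range (log2 fold change -0.60, SE 0.25, adjusted p = 0.423). *Idi1*, an isoprenoid isomerase gene, lay at 2.31 to 17.2 CPM (median 5.66) against 0 to 5.08 CPM (median 2.08), 5 libraries being below (log2 fold change -1.54, SE 0.59, adjusted p = 0.32).

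On the log2 scale, the mean of the pathway by library was -1.02 to -0.02 (median -0.29) in “OHT + DREADD”. In “SHAM” it was -0.37 to 0.24 (median 0.01). The 4 treated libraries below every “SHAM” library were 1, 2, 8 and 9, at -1.02, -0.68, -0.61 and -0.86. Of these, 1, 2 and 9 were also among the libraries with high *Cdkn1a*. The rest of the treated libraries were within the “SHAM” range. The regulators *Srebf1* and *Srebf2* had log2 fold changes of 0.08 and -0.04, neither at an unadjusted p under 0.05. In the colliculus 18 of 30 were lower with a median of -0.01. In “OHT” against “SHAM” RGCs 24 of 30 were lower with a median of -0.15 and 0 at an unadjusted p under 0.05, and the difference between “OHT + DREADD” and “OHT” had a median of -0.23 with 21 of 30 lower and 2 at an unadjusted p under 0.05.

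In the list of 32 genes of endoplasmic reticulum stress and the integrated stress response, 22 were higher (median log2 fold change 0.20) and none was called, with 1 higher and 4 lower at an unadjusted p under 0.05. Over all genes tested 47.7% were higher, and at that level 4.23% were higher and 3.79% lower. *Chac1*, which encodes an enzyme that degrades glutathione, lay at 6.58 to 26.7 CPM (median 16.1) in “SHAM” and 0 to 8.00 CPM (median 4.18) in “OHT + DREADD”. Of the treated libraries 8 of 10 were below every “SHAM” library, and the log2 fold change was -1.94 (SE 0.51, adjusted p = 0.184) with an unadjusted p of 0.00012 in the permutation test of 10 against 10 libraries. *Chac1* was named by its low p in these same libraries, so neither that count nor the permutation p is independent evidence. *Asns*, the asparagine synthetase gene, lay at 134 to 425 CPM (median 244) against 56.3 to 256 CPM (median 174), with 4 libraries below the “SHAM” range, a log2 fold change of -0.78 (SE 0.22, adjusted p = 0.184).

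Of the serine synthesis enzymes, *Phgdh* lay at 3.08 to 21.1 CPM (median 6.77) in “SHAM” and 0 to 6.40 CPM (median 1.68) in “OHT + DREADD”, 6 libraries being below the “SHAM” range (log2 fold change -1.74, SE 0.55, adjusted p = 0.184), and *Psat1* lay at 10.7 to 45.7 CPM (median 18.3) against 8.44 to 20.1 CPM (median 14.1) (log2 fold change -0.59, SE 0.28, adjusted p = 0.565). *Hspa5*, the gene of the chaperone BiP, lay at 417 to 1046 CPM (median 622) in “SHAM” and 357 to 1511 CPM (median 1155) in “OHT + DREADD”, where library 1 was the lowest of all 20 and the other 9 were above every “SHAM” library (log2 fold change 0.68, SE 0.20, adjusted p = 0.184). *Hspa5* was the higher and *Chac1*, *Asns*, *Phgdh* and *Psat1* the 4 lower genes of the list at that level, while *Atf4*, the transcription factor gene of the integrated stress response, and *Ddit3* and *Trib3*, which it induces, had log2 fold changes of 0.33, 0.35 and 0.15, none at an unadjusted p under 0.05. Without “OHT + DREADD” 1, 2, 9 and 10 the values were -1.58 for *Chac1*, -0.57 for *Asns*, -1.56 for *Phgdh* and 0.76 for *Hspa5*.

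**Figure D4:**
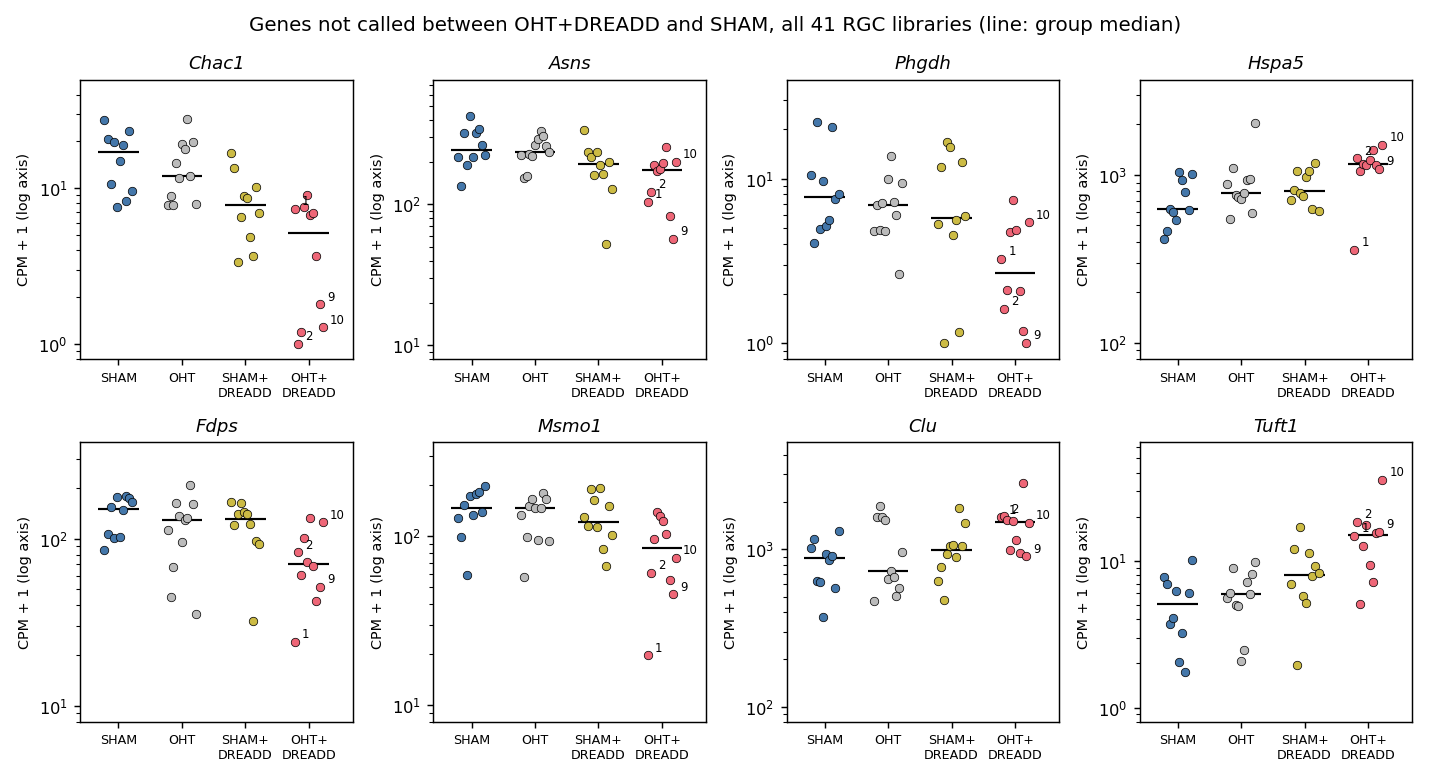
CPM plus 1 on a log axis of 8 genes that were not called, in each of the 41 RGC libraries of the 4 groups (points, with the group median as a line and “OHT + DREADD” 1, 2, 9 and 10 numbered). *Chac1*, *Asns*, *Phgdh*, *Fdps* and *Msmo1* have lower medians in “OHT + DREADD” than in “SHAM”, for *Chac1* 4.18 against 16.1 CPM, and *Hspa5*, *Clu* and *Tuft1* have higher ones.

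Several glial and secreted genes were higher across many treated retinas without passing the threshold. *Clu*, the gene of the extracellular chaperone clusterin, lay at 369.7 to 1313 CPM (median 875) in “SHAM” and 905 to 2662 CPM (median 1501) in “OHT + DREADD”, 6 libraries being above every “SHAM” library, with a log2 fold change of 0.77 (SE 0.21, adjusted p = 0.184) and of 0.81 without libraries 1, 2, 9 and 10. *Prss56*, a serine protease gene tied to eye size, had reads in 4 “SHAM” and 9 “OHT + DREADD” libraries, at up to 4.20 and 59.0 CPM, and 8 treated libraries exceeded every “SHAM” library (adjusted p = 0.184). *Cryab*, a small heat shock protein gene of glia and lens, lay at 0 to 16.7 CPM (median 5.97) against 2.34 to 38.2 CPM (median 16.8) (log2 fold change 1.44, SE 0.46, adjusted p = 0.184).

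*Serpina3n*, a protease inhibitor gene of reactive astrocytes and Müller glia, had reads in 3 “SHAM” and 9 “OHT + DREADD” libraries (log2 fold change 2.32, SE 0.79, adjusted p = 0.197), and in the colliculus it was called, at 10.3 to 30.6 CPM (median 11.5) in “SHAM” and 20.6 to 68.5 CPM (median 32.6) in “OHT + DREADD” (log2 fold change 1.42, SE 0.21, adjusted p = 0.000931). *Cfi*, a complement inhibitor gene, had reads in 4 and 8 libraries, 7 treated libraries exceeding every “SHAM” library. Of 19 reactive glia genes 15 were higher (median 0.41, 3 higher and 1 lower at an unadjusted p under 0.05), and of 13 complement genes 7 were higher (median 0.66, 5 at an unadjusted p under 0.05). Over all genes tested 47.7% were higher, and at that level 4.23% were higher and 3.79% lower. Without “SHAM” 1 to 4, 16 of 17 reactive glia genes (median 1.14, 7 at that level) and 9 of 11 complement genes (median 1.14, 3) were higher. Of all genes tested in that fit, 1071 of 16241 were higher at that level. Müller glia markers moved with these groups, 10 of 15 being higher and 4 of them at an unadjusted p under 0.05 (*Sox9* 1.58, *Car14* 0.83, *Apoe* 0.54 and *Cd9* 0.76 on the log2 scale), while *Rlbp1*, *Glul* and *Slc1a3* were at -0.09, 0.20 and 0.23. The summed level of these markers was 1760 to 3941 CPM in “SHAM” and 2638 to 6301 CPM in “OHT + DREADD”, and none of the markers was at 0 in all 20 libraries. Of 7 astrocyte markers 5 were tested and all 5 were higher (median 0.67, 1 at an unadjusted p under 0.05), *Gfap* among them at 1.07 (SE 0.64), and their sum was 0 to 18.9 CPM in “SHAM” and 0.22 to 26.2 CPM in “OHT + DREADD” with 2 markers at 0 in all 20 libraries (permutation test, unadjusted p = 0.214). The part of both marker lists in the result was not tested.

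Of the genes closest to the threshold, *Stat3*, a transcription factor gene of cytokine and injury responses, lay at 24.1 to 45.8 CPM (median 35.5) in “SHAM” and 21.5 to 228 CPM (median 56.7) in “OHT + DREADD”, 7 libraries being above the “SHAM” range and library 5 below it (log2 fold change 1.21, SE 0.29, adjusted p = 0.166). *Tuft1*, the tuftelin gene, lay at 0.757 to 9.17 CPM (median 4.09) against 4.08 to 34.7 CPM (median 14.1) with 7 libraries above (log2 fold change 1.64, SE 0.42, adjusted p = 0.184). *Mta2*, a subunit gene of the NuRD chromatin complex, lay at 15.6 to 41 CPM (median 31.4) against 18.3 to 176 CPM (median 53.8) with 8 libraries above (log2 fold change 1.06, SE 0.27, adjusted p = 0.184). With 7 or 8 libraries above the range, part of them necessarily lay outside libraries 1, 2, 9 and 10. These genes were named by their low p in these same libraries, so the counts above the range are not independent evidence.

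*Prkab1*, a subunit gene of AMP-activated kinase, and *Tnfrsf12a*, the gene of the cytokine receptor Fn14, did follow a few libraries. *Prkab1* lay at 32.3 to 72.5 CPM (median 53) in “SHAM” and reached 825 CPM in 1 treated library with a treated median of 62.7 CPM (log2 fold change 1.60, SE 0.39, adjusted p = 0.172). *Tnfrsf12a* lay at 0 to 9.75 CPM (median 3.42) against 0 to 168 CPM (median 8.97) (log2 fold change 2.96, SE 0.72, adjusted p = 0.18). *Mapk8ip1*, which encodes a scaffold of JNK signalling, had 8 treated libraries above the “SHAM” range although its log2 fold change was only 0.72 (SE 0.26, adjusted p = 0.264).

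Low genes that neared the threshold on the “SHAM” side rested on few reads. *Fam20a*, a pseudokinase gene, had 135 reads in 7 “SHAM” libraries and 3 reads in 3 “OHT + DREADD” libraries. *Hes7*, a transcriptional repressor gene, had 103 reads in 6 and 2 reads in 2 libraries, and *Calcr*, the calcitonin receptor gene, had 77 reads in 5 libraries and none. *Crygb*, a lens crystallin gene, had 190 reads in 2 “SHAM” libraries, nearly all in library 5 at 41.5 CPM, and 1 read in “OHT + DREADD”. All had an adjusted p over 0.1, and they were low or absent in part of “SHAM” too.

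The 6 DEGs that were lower, *Gm10801*, *Gm10800*, *Gm21738*, *Gm10722*, *Gm10719* and *Gm10717*, are predicted genes that overlap satellite repeats, where reads of repeat copies can be counted. *Gm10800* (chr2:98666547-98667301) was at 1014, 13310.0 and 8365 CPM in “SHAM” 2, 3 and 4, at 8.17 to 76.9 CPM in the other 7, and at 12.7 to 109.9 CPM in “OHT + DREADD”. No treated library was below the lowest “SHAM” library, and the log2 fold change of -5.37 (SE 1.02, adjusted p = 0.014) became 1.03 without “SHAM” 1 to 4. For *Gm10801* it went from -5.83 to 0.40 and for *Gm21738* from -5.83 to 1.3. In the satellite list 14 of 14 were lower with all libraries (median -3.51), and without “SHAM” 1 to 4 it was 1 of 8.

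Gene groups of RGC function lay near the “SHAM” level. Medians of the log2 fold change were 0.03 for 60 nuclear genes of oxidative phosphorylation, 0.03 for 13 genes of the mitochondrial genome, 0.04 for 25 neurofilament and cytoskeleton genes, 0.04 for 38 ion channel and glutamate receptor genes and -0.05 for 27 genes of synaptic vesicle release, with 4, 0, 0, 1 and 0 genes higher and 1, 0, 0, 0 and 1 lower at an unadjusted p under 0.05. Of 20 RGC markers 7 were higher and 13 lower (median -0.10), and none passed that level. Of 24 genes of the Bcl2 family and caspases 16 were higher (median 0.20), with *Mcl1*, *Pmaip1* and *Bcl2l2* higher at an unadjusted p under 0.05. Over all genes tested 47.7% were higher, and at that level 4.23% were higher and 3.79% lower. *Bcl2l2*, a survival gene of the Bcl2 family, lay at 5.37 to 30.9 CPM (median 11.9) in “SHAM” and 12.8 to 36.0 CPM (median 19.96) in “OHT + DREADD” (log2 fold change 0.60, SE 0.29, adjusted p = 0.592).

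Growth factor ligands were higher in 19 of 30 cases (median 0.15) and receptors in 22 of 35 (median 0.15), with 2 of each higher, and 1 ligand and 2 receptors lower, at an unadjusted p under 0.05. Of all genes tested 4.23% were higher and 3.79% lower at that level, near the shares in both lists. *Fgf9*, a fibroblast growth factor gene of retinal neurons, lay at 5.90 to 25.4 CPM (median 17.5) against 12.4 to 72.8 CPM (median 26.6), 6 treated libraries being above the “SHAM” range (log2 fold change 0.96, SE 0.30, adjusted p = 0.184). *Fgfr2*, a receptor gene of that family, had no read in “SHAM” and 57 reads in 5 “OHT + DREADD” libraries. In the DLK and JNK injury axis 11 of 25 genes were higher, 2 of them at an unadjusted p under 0.05, with a median of -0.01, and of 32 axon growth and injury genes 20 were higher (median 0.15).

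Of 29 genes that the study's results name for RGCs in other comparisons, 23 were tested, 10 were higher and 13 lower, and 3 (*Cdkn1a*, *Nr4a1* and *Egr1*) were called. These genes were chosen on libraries that overlap the present ones, so their count is not independent evidence. *Lyn*, a Src-family kinase gene of immune cells, had 1 read in “SHAM” and 54 reads in 6 “OHT + DREADD” libraries. *Ifi204*, *Il12b*, *Acvr1c* and *Cebpb* had reads in 2 “SHAM” libraries each and none in “OHT + DREADD”. For *Ifi204* these were “SHAM” 1 and 2 and for *Il12b* “SHAM” 2 and 3, so both rest on “SHAM” 1 to 4. For *Acvr1c* they were “SHAM” 4 and 8 and for *Cebpb* “SHAM” 2 and 6.

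The called genes were also read in the groups that carried only the beads (“OHT”, 11 libraries) or only the receptor (“SHAM + DREADD”, 10 libraries). *Cdkn1a* had a log2 fold change of 0.05 in “OHT” against “SHAM”, 0.17 in “SHAM + DREADD” against “SHAM” and 4.13 in “OHT + DREADD” against “OHT”. For *Mt2* the same values were -0.24, 0.18 and 4.05, and for *Egr1* -0.18, 0.18 and 3.94. *Nr4a1* stood at 0.53, 1.10 and 2.69. These comparisons share libraries, and each value is given beside the others for description.

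A fit of all 41 RGC libraries tested whether the difference of “OHT + DREADD” from “SHAM” departed from the sum of the differences of “OHT” and of “SHAM + DREADD”. The interaction was called for 344 of 19234 genes (1.79%), of which 312 had a mean of at most 2 CPM and 176 were predicted genes or pseudogenes, and DESeq2 called 11 and limma-voom 0. Among the 13 DEGs 5 were called, including *Mt2* at 3.86 (SE 0.80, adjusted p = 0.027), *Cdkn1a* at 3.94 (SE 0.92, adjusted p = 0.027), *Egr1* at 3.74 (SE 0.83, adjusted p = 0.027) and *Usp2* at 1.34 (SE 0.41, adjusted p = 0.089). *Nr4a1* at 1.57 (SE 0.74, adjusted p = 0.44) and *Per1* at 0.67 (SE 0.45, adjusted p = 0.74) were not. With a sex covariate the adjusted p was 0.448 for *Mt2*, 0.184 for *Cdkn1a*, 0.184 for *Egr1* and 0.558 for *Usp2*, none of them called, and 10 of 10 “SHAM + DREADD”, 2 of 11 “OHT” and 2 of 10 “SHAM” libraries were from females by the same genes. The part of sex in the interaction was not tested beyond that fit.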

How the data were processed

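RGC RNA (Smart-Seq2) and superior colliculus RNA (QuantSeq 3′) were deposited as raw counts per gene, which the authors made with FastQC 0.11.7, HISAT2, SAMtools 1.5 and HTSeq 2.7.14 on mm10, discarding reads that mapped to several places. Strand setting and annotation release are not given in the sources used here, so overlapping and antisense genes may share reads. Samples were grouped by their titles. Of 43629 gene identifiers 42548 had a symbol in GENCODE M21.

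Genes that had over 5 reads in 2 or more libraries of a comparison were tested with edgeR 4.0.16 (TMM factors, quasi-likelihood F-test, Benjamini-Hochberg adjustment) under R 4.3.3. SEs are the absolute log2 fold change over the square root of F. CPM values are TMM-normalised. Single genes and marker sums were compared on log2 (value + 1) by two-sided permutation tests with 100000 resamples. The mice behind replicates are not tied to labels beyond a number, so p-values measure the spread between libraries. Members and gene lists were chosen with earlier results of these data known. Named genes were the DEGs (of predicted genes the 3 of lowest p per direction), the 10 uncalled genes of lowest p per direction, from each list no more than 6 members, ranked by p, and genes the study names. Others, such as regulators given for contrast, were chosen after their values were seen. For genes named by p, counts of libraries above or below the “SHAM” range are not independent evidence. In data simulated for this comparison (17314 genes) 60% of changes of log2 1.5 and 98% of log2 3 were recovered. The changed genes were drawn from those with a mean over 5 CPM, so these rates do not cover lower genes. There were 56 calls among genes that had not been changed, more than the 13 DEGs of this comparison, so a call in it can be false. Alternatives were other filters, tests (DESeq2 1.42.0, limma 3.58.1), covariates and left-out libraries. The settings without “OHT + DREADD” 2, 9 and 10 or 1, 2, 9 and 10 were chosen after seeing the data. The lowest chi-square per degree of freedom between libraries of a group was 15.41, so none was a duplicate.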

Additional observations from a re-analysis of the deposited data

Results flagged for a closer look

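In 48 groups of 10 libraries, the gap from the most extreme library to the next was taken as a share of the group's range. It exceeded Dixon's 95% critical value of 0.466 in 7 groups, each time for the highest library. For normally distributed values chance gives about 1 in 20. That rate need not hold here, because CPM values were not log-transformed and the DEGs had been chosen in these same libraries. The RGC library “OHT + DREADD” 9 stood out for *Nr4a1* (388 CPM, next 162 CPM, ratio 0.593), *Usp2* (2330 CPM, next 1056 CPM, ratio 0.582) and *H1foo* (64.8 CPM, next 7.35 CPM, ratio 0.887). *H1foo* in “SHAM” 10 had a ratio of 1.0 because its single read was the only one in the group. “OHT + DREADD” 8 stood out for the summed markers of bipolar cells (5906 CPM, next 3845 CPM, ratio 0.478) and of microglia (131 CPM, next 53.8 CPM, ratio 0.623), and “SHAM” 2 for those of endothelial and mural cells (74.9 CPM, next 44.1 CPM, ratio 0.484).

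The interaction of OHT and stimulation had an adjusted p of 0.0269 (edgeR quasi-likelihood) for *Cdkn1a*, *Mt2*, *Egr1* and *Hipk1*, a homeodomain-interacting kinase gene, and of 0.0893 for *Usp2*. For *Hipk1* the interaction was -2.11 on the log2 scale (SE 0.46), and of these 5 genes it was the only one called with a sex covariate (adjusted p = 0.0254).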

How the results depend on the processing

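The 13 DEGs became 364 (139 higher, 225 lower) with no filter on low counts, 7 with filterByExpr and 7 with more than 5 reads in 10 libraries, 27 with edgeR's likelihood ratio test, 23 in a fit of all 4 groups, 20 with a sex covariate (18 higher, 2 lower) and 6 with a rod covariate. The count was 0 with robust quasi-likelihood, with limma-voom, without “SHAM” 1 to 4, without “SHAM” 3 and 4, without “OHT + DREADD” 2, 9 and 10, without 1, 2, 9 and 10, and without both 2, 9 and 10 and “SHAM” 1 to 4. Counts higher and lower at an unadjusted p under 0.05 were 714 and 642, 425 and 523, 1071 and 414, 769 and 449, 334 and 641, 304 and 744 and 775 and 390 in that order. DESeq2 called 16. Leaving out 1 library at a time gave 8 (without “SHAM” 3) to 20 (without “OHT + DREADD” 8). For the interaction, 344 became 11 with DESeq2, 0 with limma-voom (633 and 432 at an unadjusted p under 0.05) and 5 with filterByExpr, and 302 to 358 without 1 library.

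Of 2439 values of 68 named genes under alternatives 2426 had the same direction. These include the fits that leave out 1 library at a time. Under the other alternatives the 7 called protein-coding genes had 114 values, of which 112 had the same direction but only 59 were called. Without “OHT + DREADD” 1, 2, 9 and 10 the log2 fold change was -0.20 for *Cdkn1a*, -0.21 for *Mt2*, -0.13 for *Mt1* and -0.76 for *Junb*. *Dusp8* was at -0.0129 without 2, 9 and 10, and at -0.0197 also without “SHAM” 1 to 4. Without “SHAM” 1 to 4, *Gm10801*, *Gm10800*, *Gm21738* and *Gm26870* were at 0.40, 1.03, 1.3 and 0.22 (0.62, 1.26 and 1.67 for the first 3 also without “OHT + DREADD” 2, 9 and 10). The cause was not tested.

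RGC libraries of the same number in “SHAM” and “OHT + DREADD” did not deviate together (r -0.0703 to 0.0824). The numbers were therefore not taken as pairs between these groups, and the fit with a replicate block called 18 genes. These r values do not concern retinas and colliculi of the same number, which are compared above. Depth limits *H1foo*, *Egr2*, *Lyn* and the low genes of “SHAM”, whose reads lie in few libraries.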
